A study of Cervus nippon with 40 samples.

Results

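miR-1 and miR-206 were described across 10 organs of male Sika Deer of the Shuangyang breed. They were chosen by name, by a rule that holds no measured value but was written with earlier results of these data known, and are 2 of the 305 known miRNAs listed outside antler. The names are those of cattle (bta-miR-1 and bta-miR-206), which miRBase holds and to which the deer reads were matched. Small RNA of muscle and heart, of testes, spleen, antler and kidney, and of liver, adrenal, brain and lung was sequenced at the ages of 1 year (juvenile), 3 years (adolescence), 5 years (adult) and 10 years (aged). RNA of 3 deer was pooled for each library, and each organ had 1 library per stage, so an organ is a group of 4 libraries of different ages. The labels give no treatment of the 12 deer, and the 10 libraries of a stage came from the same 3 deer. p-values thus measure the spread between pooled libraries of an organ, and any stage difference compares 4 groups of 3 deer.

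miRNAs are short RNAs that pair with messenger RNAs and lower the amount of protein made from them. miR-1 and miR-206 belong to one family with the same seed, the bases that select targets, and differ at only a few positions outside it. miR-1 is known as the leading miRNA of heart and skeletal muscle, where it favours the differentiation of muscle cells. It is transcribed together with miR-133a from the same precursor transcripts. miR-206 is known from skeletal muscle, where it lies beside miR-133b and is linked to muscle stem cells, regeneration and the neuromuscular junction. Because the sequences of miR-1 and miR-206 are so alike, reads with an error could be placed under either name, and reads of miR-1 are not divided among its gene copies.

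The depth was 41866 to 7759033 miRNA reads per library with a median of 744715. Values are given as reads per 1000000 miRNA reads (RPM), so a level is a share of the miRNA reads of its library. Intervals and limits given for single libraries cover counting error only. In pooled tissue, fewer muscle cells and less miR-1 per cell cannot be told apart. Of 9 marker lists for the labelled organs, 7 had their highest median summed level in the labelled organ. The exceptions were the skeletal muscle list, highest in heart, and the liver list, in which kidney stood at 158046 RPM and liver at 157964 RPM. The kidney list, counted among the 7, gave the same values in both organs, so it did not set kidney apart from liver. The liver marker miR-122 was on the liver list but had no entry among the known miRNAs listed outside antler, so that list summed miR-192 and miR-194. The testes list (miR-202 and miR-449a) summed to 0 to 104 RPM in testes, so these libraries showed little of their defining markers. A list of smooth muscle (miR-143 and miR-145) had its highest median in spleen, at 163211 RPM.

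miR-1 was the main miRNA of muscle and heart and was present in every library. It took 27948506 of all 52444509 miRNA reads, or 53.3%, and 84.7% of these miR-1 reads came from muscle, with nearly all others from heart. The lowest library still held 586 reads of it. miR-1 ranked highest of the known miRNAs in 7 libraries, which were the 4 of muscle and 3 of the 4 of heart.

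In muscle, miR-1 stood at 919513 RPM in juvenile, 917819 RPM in adolescence, 928505 RPM in adult and 910959 RPM in aged deer. The share of miRNA reads was 91.9% ± 0.722 (SD, n = 4 libraries), and highest over lowest was 1.02. A share this near to the whole library can hardly rise further, so a stage difference in miR-1 output would be hard to see on this scale. Counted against all other miRNAs, muscle held 1142, 1117, 1299 and 1023 reads of miR-1 per 100 other miRNA reads in the same order of stages. After TMM scaling, explained with the comparisons below, the log2 level was 24.16, 23.71, 23.27 and 22.70, lower at each later stage. That order rests on 1 library per stage and was not tested. miRNA reads made up 52.6% to 57.2% of the clean reads of muscle, so miR-1 alone took 48.3% to 53.1% of all clean small RNA reads.

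In heart, miR-1 stood at 577640 RPM in juvenile, 814910 RPM in adolescence, 316406 RPM in adult and 151290 RPM in aged deer. The 4 heart libraries ranged 5.39-fold, and their mean share was 46.5% ± 29.2 (SD, n = 4). Both older hearts lay below both younger ones, and all 4 lay below every muscle library. In the aged heart miR-1 ranked the third, behind miR-133a at 252493 RPM and miR-378 at 203254 RPM. miRNA reads were a smaller part of the clean reads in the older hearts, with 21.9%, 22.1%, 12.8% and 8.71% from juvenile to aged. Of all clean reads, miR-1 took 12.7%, 18.0%, 4.03% and 1.32% in the same order. The part of the lower miRNA yield in the lower miR-1 level of the older hearts was not tested.

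**Figure D1:**
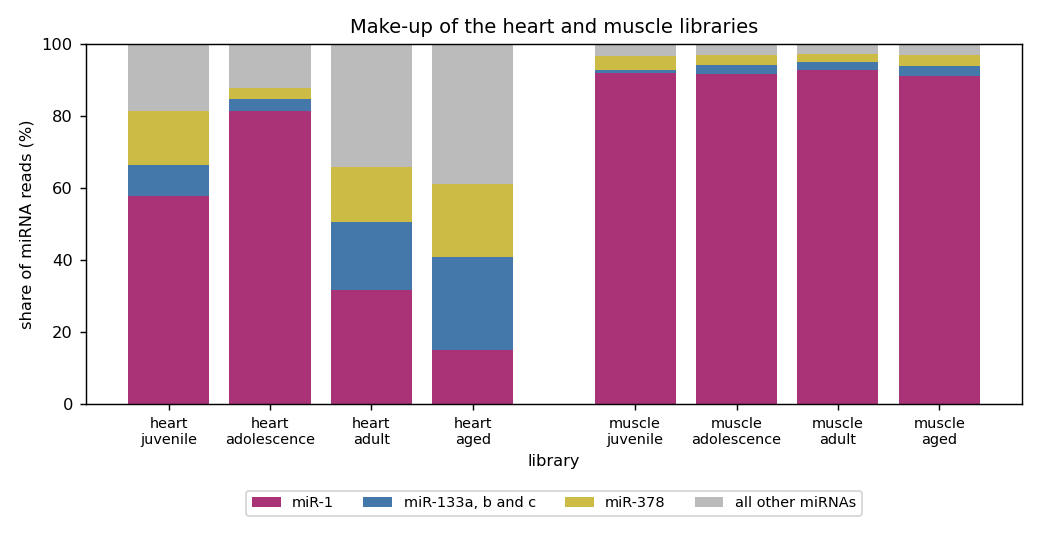
Share of miRNA reads (%) taken by miR-1, by the sum of miR-133a, miR-133b and miR-133c, by miR-378 and by all other miRNAs in each heart and muscle library, stacked to the whole library. miR-1 held 91.1% to 92.9% in the 4 muscle libraries and 81.5% down to 15.1% in the 4 heart libraries.

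The other 8 organs held far less miR-1, with 825 to 52057 RPM over 32 libraries and a median of 3814 RPM. Values follow the order juvenile, adolescence, adult and aged. Testes held 3390, 48579, 8895 and 13997 RPM. Spleen held 5418, 7564, 1782 and 52057 RPM. In both organs 1 library stood well above the rest on the RPM scale, the adolescence testes and the aged spleen. miRNA reads were only 4.84%, 0.50%, 0.82% and 0.40% of the clean reads of testes. Of all clean reads, miR-1 took 0.0164%, 0.0243%, 0.00731% and 0.00566% in testes, so the adolescence library stood less far above the juvenile one. In the aged spleen miR-1 took 0.210% of clean reads, against 0.0132% to 0.0530% in the other spleens. Antler, the yearly regrown bone of the head, held 10260, 8662, 5202 and 3717 RPM. Kidney held 11626, 11221, 3157 and 1345 RPM. Adrenal held 6601, 3124, 1986 and 825 RPM. These 3 organs had their lowest level in the aged deer and both older libraries below both younger ones. Brain held 3911, 1867, 1562 and 968 RPM and showed the same order. Liver held 2408, 10797, 4372 and 2794 RPM. Lung held 969, 4815, 1047 and 1030 RPM. Liver and lung were highest in adolescence, and lung held nearly the same level at the other 3 stages.

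**Figure D2:**
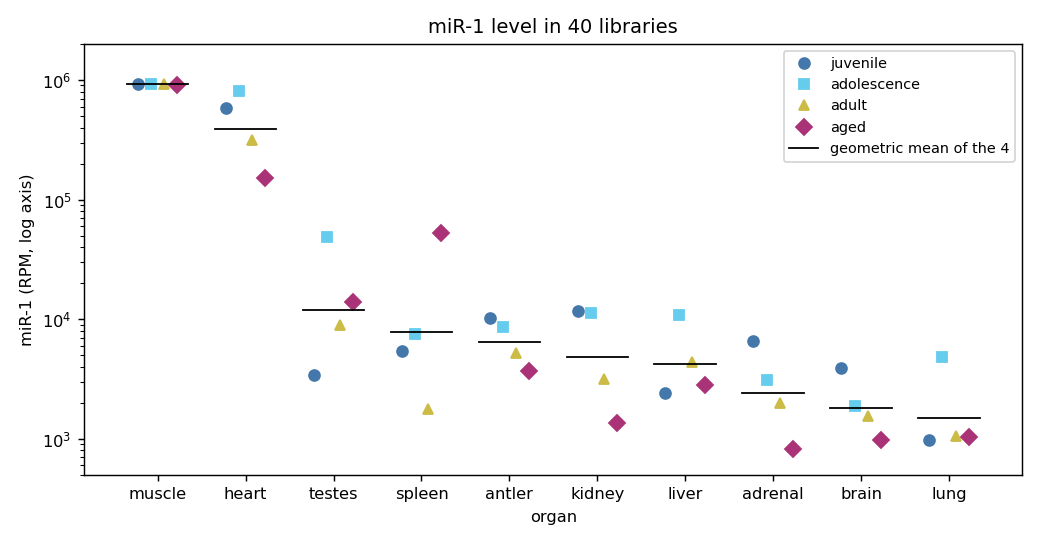
Level of miR-1 (RPM, log axis) in all 40 libraries by organ, with 1 point per library marked by stage and a line at the geometric mean of the 4. The muscle and heart libraries all sit at 151290 RPM or above, and the highest of the other 32 libraries is the aged spleen at 52057 RPM.

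The first question of the design is how organs differ. miR-1 was higher in muscle than in the mean of the other 9 organs by 11.13 on the log2 scale (SE 0.51, interval 10.09 to 12.17, adjusted p = 1.20e-19, limma). This was the largest difference of the 124 miRNAs tested, of which 44, or 35.5%, were called in this comparison. miR-1 was higher in heart than in the mean of the other 9 organs by 6.73 (SE 0.51, interval 5.69 to 7.78, adjusted p = 1.69e-13, limma), the third of 124, of which 34, or 27.4%, were called. Muscle exceeded heart by 3.96 (SE 0.69, interval 2.56 to 5.36, adjusted p = 5.42e-05, limma), while 10 miRNAs, or 8.06%, were called between these organs. A miRNA was called at an adjusted p below 0.01 and a log2 difference above 1 in size, and the differences are on log2(RPM + 1) after TMM scaling. TMM scaling aims to bring the middle of the miRNAs near equal between libraries. A few very abundant ones then press down all others less. The median difference of all tested miRNAs was still -0.67 in muscle and -0.45 in heart. Scaled to total miRNA reads, where muscle lies near the ceiling, the muscle to heart difference was 1.25 and was not called (adjusted p = 0.158, limma). The 3 comparisons share libraries and are not independent of each other.

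The counts of calls depended on the scaling. Scaling to total reads shifted the median difference of all tested miRNAs by -2.94 in muscle, by -0.92 in heart and by -1.91 between muscle and heart. In muscle 20 miRNAs were called higher and 24 lower, against 7 and 102 on total reads, 13 and 47 on total reads without miR-1, 24 and 17 with size factors of DESeq2, and 11 and 29 on clean reads. In heart 15 were called higher and 19 lower, against 11 and 55, 15 and 30, 19 and 14, and 16 and 4 on the same scales. Between muscle and heart 5 were called higher and 5 lower, against 2 and 57, 5 and 9, 6 and 8, and 4 and 8. On each of these scales miR-1 was called higher in muscle and in heart than in the other 9 organs.

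Ordered by the mean log2 level after TMM scaling, muscle stood at 23.46, heart at 19.50, spleen at 12.70, antler at 12.52, testes at 12.37, kidney at 11.07, liver at 11.01, brain at 10.77, lung at 10.72 and adrenal at 10.30. On this scale the muscle libraries exceed 1000000 RPM because TMM lowers their effective size, as it does for the hearts other than the aged one. Of the 9 pairs of organs next to each other in this order, 2 differed beyond the spread, which were muscle over heart and heart over spleen. Over the 9 pairs and all tested miRNAs, 19.4% of the tests were called. Heart exceeded spleen by 6.80 (adjusted p = 5.47e-10, limma). The remaining 7 differences were 0.05 to 1.30, and none was called. The widest of these was testes over kidney (adjusted p = 0.171, limma), and spleen differed from antler by 0.18 with an interval of -1.22 to 1.58. The order of the 8 lower organs is therefore not settled by these libraries.

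The second question is whether miR-1 changes with maturity. The median over the 10 organs was 6009 RPM in juvenile, 9729 RPM in adolescence, 3765 RPM in adult and 3256 RPM in aged deer. Without heart and muscle the medians were 4664, 8113, 2572 and 2070 RPM. On the RPM scale the mean of the older stages lay below that of the younger stages in 8 of 10 organs. Both older libraries lay below both younger ones in 5. After TMM scaling, on which the fit below was made, muscle also had both older libraries below both younger ones, and antler did not. The fitted difference of adult and aged from juvenile and adolescence was -1.04 (SE 0.31, interval -1.66 to -0.41, adjusted p = 0.0209, limma) and was not called, while 7 miRNAs, or 5.65%, were. All libraries of a stage came from the same pooled deer, but this fit counted the organs of a stage as independent. The SE, interval and p-values of maturity, here and in the alternatives below, thus measure the spread between libraries and not between deer. Whether the stages differ beyond the spread between deer was not tested. The call of the fitted difference depended on the tool and on single libraries. DESeq2 called the difference at -1.35 on all 40 libraries (adjusted p = 0.00163), and edgeR did not at -1.03 (adjusted p = 0.0244). Without the aged spleen, left out after its level had been seen, the difference was -1.23 and was called (adjusted p = 6.10e-04, limma), as it was at -1.38 without any spleen library (adjusted p = 0.00223, limma). Without the whole aged stage it was -1.17 and was not called (adjusted p = 0.0252, limma).

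Heart had a mean of 696275 RPM at the younger stages and 233848 RPM at the older stages, a ratio of 0.336. The maturity difference in heart minus that in the other 9 organs was -2.23 (SE 0.97, interval -4.21 to -0.26) with an adjusted p of 0.852 in limma and an unadjusted p of 0.0275. This comparison was chosen after the fall of the miR-1 share in heart was known. Its interval and unadjusted p are therefore a description. No miRNA was called in this comparison, which is 0% of 124, and 4 had an unadjusted p under 0.05 in limma. edgeR called 0 with 3 under 0.05 unadjusted, and DESeq2 called 1. A larger fall in heart than in the other organs was therefore not shown.

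Other striated muscle miRNAs were read beside miR-1. The list was miR-133a, miR-133b and miR-133c, which act with miR-1 in muscle, miR-208a, miR-208b and miR-499, which lie inside myosin genes, and miR-486, which is known from muscle and red blood cells. All 7 were found and 5 passed the minimum of 10 reads in 4 libraries. miR-208b reached 10 reads in heart and muscle libraries alone, so it passed through the organs where it is high and its differences are a description. The remaining 4 reached 10 reads in at least 6 libraries of the other 8 organs as well. These 4 were called higher in muscle, where 16.1% of tested miRNAs were, and in heart, where 12.1% were. The median difference of the 5 tested names, miR-208b included, was 7.93 in muscle and 6.55 in heart, against -0.67 and -0.45 over all tested miRNAs. In muscle miR-133a was higher by 7.93, miR-133b by 8.40, miR-133c by 8.43, miR-208b by 3.45 and miR-486 by 2.66. The direction of miR-486 in muscle depended on the scaling, since on total miRNA reads it was called lower at -1.39. The values of miR-208b rest on few reads and on the 1 RPM added before the log, and in muscle it stood at 1.11 with 10 RPM added and was not called on total reads (0.70), on clean reads (0.55) or in DESeq2. In heart DESeq2 did not call it either. In heart the differences were 7.69 for miR-133a, 6.55 for miR-133b, 7.46 for miR-133c, 5.73 for miR-208b and 3.83 for miR-486.

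Between muscle and heart none of the 5 was called higher, and miR-208b alone was called lower. The difference was 0.21 for miR-133a with an interval of -1.36 to 1.78, 0.87 for miR-133c and 1.67 for miR-133b, and none of these was called. The direction turned on total miRNA reads, where miR-133a was called lower in muscle at -2.50 and miR-133b and miR-133c stood at -1.05 and -1.83, and in DESeq2 miR-133b was called higher at 1.79. miR-486 stood at -1.05 (adjusted p = 0.162, limma) and on total reads at -3.76, where it was called. miR-208b was lower in muscle by -2.04, which is a description, since it passed the minimum through heart and muscle alone. Its call in limma was lost in edgeR, in DESeq2 and without any 1 stage. The list median, miR-208b included, was 0.21 and that of all tested miRNAs -0.02.

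**Figure D3:**
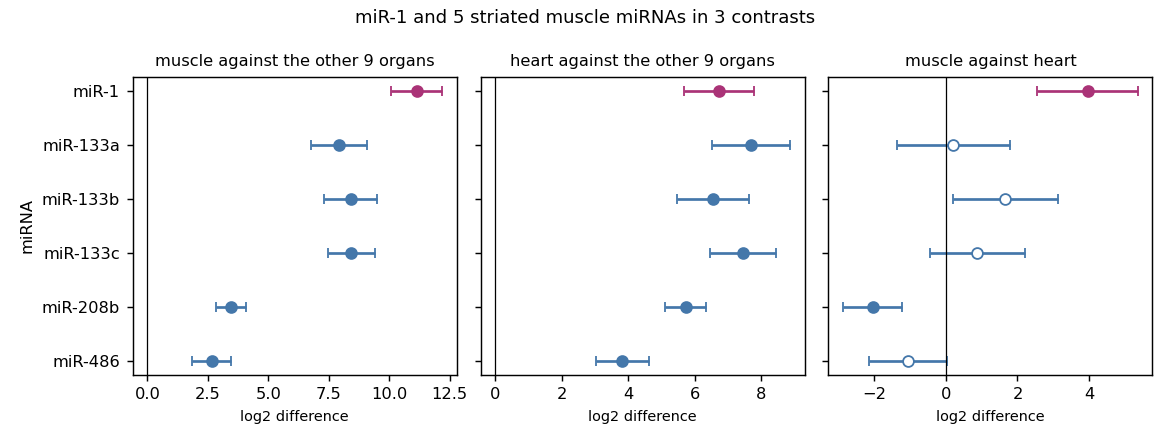
Log2 difference with its 95% interval for miR-1 and the 5 tested striated muscle miRNAs in 3 comparisons, on log2(RPM + 1) after TMM scaling; filled points were called. miR-1 is highest of the 6 in muscle at 11.13 and is the only one of them called higher in muscle than in heart at 3.96. miR-208b passed the minimum of reads through heart and muscle alone, so its points are a description.

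The myosin-gene miRNAs marked the heart libraries by their reads. miR-208a had 16, 14, 3 and 1 reads in the hearts from juvenile to aged and no read in the other 36 libraries. miR-208b had 47, 200, 63 and 30 reads in heart and 5, 10, 5 and 20 in muscle, and none in the other 32 libraries. miR-499 was seen with 3 reads in the adolescence heart and 2 in the adult heart. The 3 heart markers thus summed to 24.4 to 84.8 RPM in heart, to 0.644 to 3.32 RPM in muscle and to 0 in every other organ.

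miR-206 was found in muscle alone, and there it was scarce. The 4 muscle libraries held 15, 10, 6 and 6 reads from juvenile to aged, which makes 37 reads in all 40 libraries. Reads of miR-1 with an error could be placed under this name, and muscle held most reads of miR-1. The part of such reads among the 37 was not tested, and this limit holds for each value of miR-206 below. Its level was 1.93 RPM in the juvenile muscle (exact 95% binomial interval 1.08 to 3.19), 1.83 RPM in adolescence (0.879 to 3.37), 0.923 RPM in adult (0.339 to 2.01) and 0.996 RPM in aged muscle (0.365 to 2.17). The 4 intervals overlap, so a difference between stages was not detectable at this depth. miR-206 ranked at 76 to 88 among the known miRNAs of these libraries. Because miR-1 fills the muscle libraries, the level was also counted per 1000000 miRNA reads other than miR-1, where it was 24, 22.3, 12.9 and 11.2.

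No read of miR-206 was found in the 36 libraries of the other 9 organs. In heart, 0 reads allow up to 1.16 RPM in juvenile, 1.17 RPM in adolescence, 1.97 RPM in adult and 3.31 RPM in aged deer (3 reads of each library). The juvenile and adolescence limits lie below the muscle level of the same stages but within its counting interval, while the adult and aged hearts could have held the muscle level unseen. The 4 hearts pooled allow up to 0.396 RPM, and 0.450 to 0.602 RPM with any 1 of them left out, against 1.44 RPM in the 4 pooled muscle libraries (exact interval 1.01 to 1.98). The limit in the aged testes, the smallest library, was 71.7 RPM. Pooled over the 4 libraries of an organ, the limit was 4.04 RPM in testes, 1.64 RPM in antler, 1.62 RPM in liver and 1.59 RPM in kidney. These 4 limits lie above the pooled muscle level, so these organs could have held that level unseen. In lung, brain, spleen and adrenal the limits were 0.856 to 0.995 RPM. All 36 libraries pooled held 26710015 miRNA reads, which allows up to 0.112 RPM. The mean in muscle was 1.42 RPM ± 0.536 (SD, n = 4) and 0 in every other organ. The difference of 1.42 RPM had p = 0.0001 in an exact permutation test of organ labels within stages, two-sided, the smallest that 10000 relabellings can give. Against heart alone the exact permutation p was 0.0286, two-sided, the smallest of 70 relabellings, and 0.125, the smallest of 16, with stages as pairs. These tests enter 0 reads as a level of 0, and every muscle library was deeper than every other library. Their p-values thus cannot separate a lower level from a smaller library, for which the limits above are to be read.

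**Figure D4:**
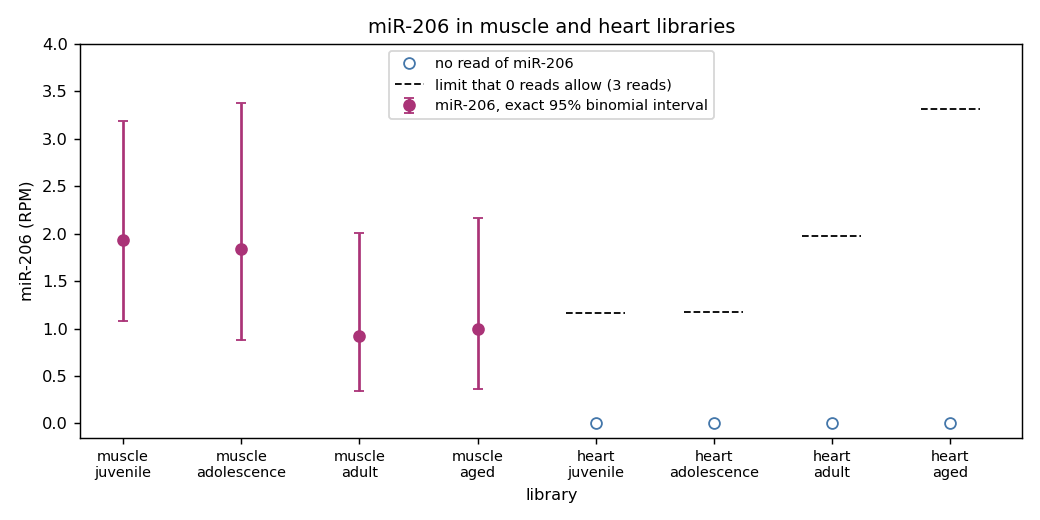
Level of miR-206 (RPM) in the 4 muscle libraries with exact 95% binomial intervals, and the 4 heart libraries with no read, where dashes mark the limit that 0 reads allow. Muscle lies at 0.923 to 1.93 RPM, and the heart limits lie at 1.16 to 3.31 RPM.

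The ratio of the 2 miRNAs was extreme in muscle. There were 475635 reads of miR-1 for each read of miR-206 in juvenile, 500485 in adolescence, 1005540 in adult and 914709 in aged muscle. Pooled over the 4 libraries the ratio was 639483, with an exact interval of 463942 to 908237. Written the other way, muscle held 1.56 reads of miR-206 per 1000000 reads of miR-1 (1.10 to 2.16). At the muscle proportion the hearts, with 4195603 reads of miR-1, would hold 6.56 reads of miR-206, or 3.30 without the adolescence heart, and they held 0. In the other 8 organs the same proportion gives 0.144 reads, so no ratio can be measured there.

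For heart only lower bounds can be given, as the reads of miR-1 over 3 reads. They were at least 497176 in juvenile, 695309 in adolescence, 160403 in adult and 45647 in aged heart. Each of these 4 bounds lies below the highest muscle ratio, and no single heart library can thus be set apart from muscle. The 4 hearts together gave at least 1398534 miR-1 reads per read of miR-206, above the interval of pooled muscle. This rested on the younger hearts, since the bound was 901358 without the juvenile and 703226 without the adolescence heart, both within that interval. No test was made of this ratio, since miR-206 had no read in heart.

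A second ratio, that of miR-1 to its transcript partner miR-133a, could be measured in every library and does not depend on scaling. In muscle it was 103, 38.5, 48.1 and 33.5 from juvenile to aged. In heart it was 6.88, 27.9, 1.71 and 0.599. All 4 muscle libraries lay above all 4 hearts, and in the aged heart miR-133a outnumbered miR-1. The mean log2 ratio was 5.65 ± 0.72 in muscle and 1.91 ± 2.41 in heart (SD, n = 4). The difference of 3.75 had an exact permutation p of 0.0286, two-sided, the smallest of 70 relabellings, and 0.125 with stages as pairs, the smallest of 16. With the sum of miR-133a, miR-133b and miR-133c the difference was 3.71. The heart level of miR-133a was 83958, 29225, 184634 and 252493 RPM, an order of the 4 hearts opposite to that of miR-1 on this scale of shares. Per 1000000 clean reads it was 18392, 6460, 23541 and 21996, where the adult heart exceeded the aged one. In muscle miR-133a held 8908, 23850, 19293 and 27228 RPM and was lowest in the juvenile library, where the ratio was highest.

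In the other 8 organs the ratio of miR-1 to miR-133a ran from 0.315 in the adult spleen to 51.7 in the juvenile adrenal, with a median of 4.27. Adrenal held 51.7, 20.6, 2.33 and 1.93, and kidney 44.5, 14.0, 2.81 and 1.43 from juvenile to aged. Testes held 42.2, 18.1, 4.52 and 1.96, and brain 20.3, 5.13, 1.33 and 0.567. In these 4 organs the ratio was lower at each later stage. Antler kept a high ratio, with 28.2, 19.9, 30.3 and 41.3. Spleen held 1.60, 1.5, 0.315 and 28.3, liver 2.64, 5.44, 3.32 and 0.943, and lung 3.83, 18.5, 4.02 and 1.57. The aged library lay below the juvenile one in 8 of 10 organs, and both older libraries lay below both younger ones in 5. miR-1 exceeded miR-133a in 36 of 40 libraries.

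**Figure D5:**
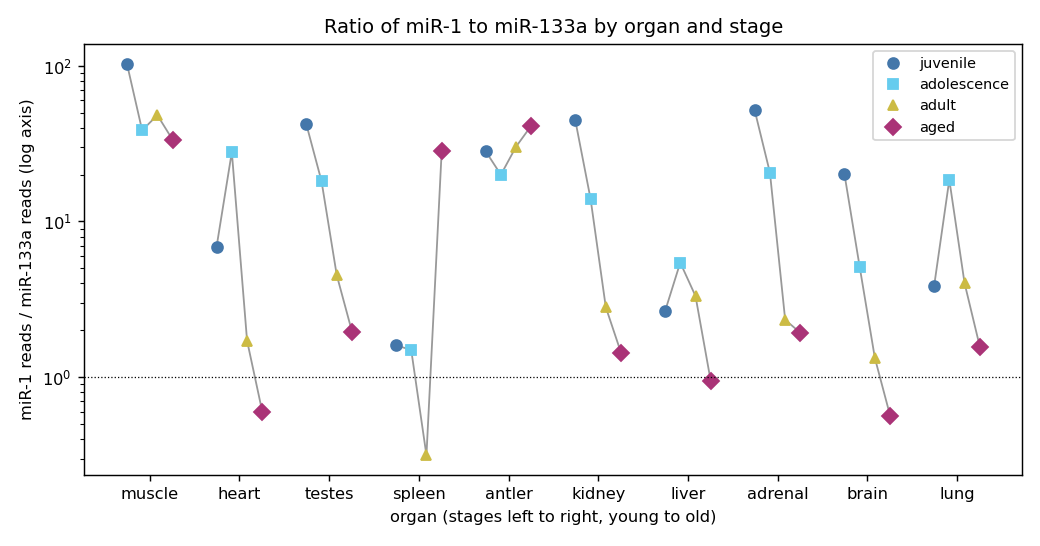
Ratio of miR-1 reads to miR-133a reads (log axis) by organ, with the 4 stages from young to old joined by a line and a dotted line at equal reads. Muscle stays at 33.5 or above, and heart falls from 27.9 in adolescence to 0.599 in aged deer.

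The miRNAs whose levels ran most like miR-1 over the 40 libraries, apart from the list above, were miR-378c with Pearson's r of 0.806 (Spearman's rho 0.570), miR-378 with 0.784 (0.543), miR-378b with 0.765 (0.561), miR-378d with 0.702 (0.578) and miR-22-5p with 0.530 (0.274). The miR-378 family is known from energy metabolism and is encoded within a gene of mitochondrial control. Of the list, miR-133c had 0.941, miR-133b 0.868, miR-208b 0.866, miR-133a 0.863 and miR-486 0.588. Heart and muscle carried these values, since over the 32 libraries of the other organs r was 0.157 for miR-378c, 0.128 for miR-133a and 0.529 for miR-133c. The level of miR-378 was 32238 to 203254 RPM in heart, 29539 to 110223 RPM in spleen and 24361 to 38761 RPM in muscle. On the RPM scale its high organ was thus heart and not muscle, and its mean in spleen, 69688 RPM, exceeded that in muscle, 29543 RPM. This order depended on the scale. Per 1000000 clean reads, miR-378 held 13436 to 21748 in muscle, 1191 to 7426 in spleen and 7126 to 32634 in heart. Muscle then lay above spleen, and its range lay within that of heart. These correlations describe libraries that share deer within a stage and are given without a test.

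For miR-206 the most alike outside the list were miR-1 with r of 0.762 (rho 0.520), miR-378c with 0.680 (0.521), miR-378 with 0.589 (0.492), miR-378d with 0.586 (0.513) and miR-196a with 0.576 (0.485). With reads in 4 libraries only, these values say little more than which miRNAs are higher in muscle than in most other libraries. miR-196a, which lies in the HOX clusters, held 10.8 to 131 RPM in muscle and 0 to 1.10 RPM in heart, but was highest in kidney, at 723 to 1575 RPM, and held 71.7 to 153 RPM in testes.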

How the data were processed

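Per the labels, small RNA libraries were made with a NEBNext kit from Trizol RNA. The authors trimmed adapters, dropped short reads and other RNA classes, matched reads to miRBase 22.0, predicted further miRNAs with miRDeep 2.0.5, and deposited RPM values for each library (headed tpm, with no length in them). The submitters' processing notes name CASAVA, bcl2fastq 1.8.4 and Bowtie, and the genome build is not given in the sources used here. miRNAs without reads are left out of the tables. All 7982 values were whole reads within 0.02 (largest distance 0.000243), so reads were recovered. The antler reads named miR-148c were added to miR-2957.

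limma 3.58.1 (trend, R 4.3.3) was fitted on log2(RPM + 1) after TMM scaling (edgeR 4.0.16) with organ and stage over 40 libraries and 124 known miRNAs with at least 10 reads in 4 libraries. Calls needed a Benjamini-Hochberg adjusted p below 0.01 and a log2 difference above 1. Maturity was fitted within organs. Stage is the replicate number and pairs the libraries because each stage has its own 3 deer. The mean correlation of their deviations was 0.182, 0.0826, 0.178 and 0.137 for the 4 stages. miR-206, under the minimum, and ratios were compared by exact permutation tests in Python 3.11.15 with scipy 1.17.1. Binomial intervals are exact (Clopper-Pearson), and 0 reads were taken to allow 3. Scripts were tested on simulated data. Alternatives were other scalings, edgeR and DESeq2 1.42.0 on the recovered reads, 10 RPM added, no minimum, no stage term, and leaving out each stage or organ. Clean-read totals came from the study's supplementary list. The text names both members, the striated muscle list, and the 5 other tested miRNAs most like each member. The members, the lists and the comparison of maturity in heart were chosen with earlier results of these data known.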

Additional observations from a re-analysis of the deposited data

Results flagged for a closer look

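In 21 groups of 4 libraries the highest or lowest library was compared with the range of its organ by Dixon's rule, which chance passes in about 1 in 20 groups, and 4 passed. miR-1 in the aged spleen stood at 52057 RPM, far above the 1782 to 7564 RPM of the other spleens. The ratio of miR-1 to miR-133a in that library was 28.3, against 0.315 to 1.60. Of the list for spleen and blood cells, miR-142-5p stood at 2849 RPM in this library, against 6.62 to 104 RPM in the other spleens, and miR-150 at 31.1 RPM against 256 to 325 RPM. This library held no read of miR-206, miR-208a, miR-208b or miR-499, and its miR-133a, at 1839 RPM, was the lowest of the 4 spleens. At the muscle proportion of miR-206 to miR-1, the 8 organs other than heart and muscle would together hold 0.144 reads of miR-206. Muscle itself held 5 to 20 reads of miR-208b and none of miR-208a or miR-499. The absence of these names therefore says nothing of skeletal muscle RNA in this library. miRNA reads were 4.03% of its clean reads, against 6.74% to 7.43% in the other spleens, and the part of these values in the result was not tested. miR-1 in the adolescence lung stood at 4815 RPM, against 969 to 1047 RPM in the other lungs, and its ratio to miR-133a was 18.5, against 1.57 to 4.02. That library held no read of the 3 heart markers or of miR-206. The same limits hold for this absence.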

How the results depend on the processing

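Of 159 alternative values over the 13 results on the members, the ratios and the counts, 137 kept their direction and side of the threshold or, for counts, stayed within 1.5 times, 11 fell short of the threshold, 3 newly passed it and 8 counts moved by more. Single striated muscle miRNAs reversed in 5 cases, which were miR-486 in muscle on total reads (-1.39) and, between muscle and heart, miR-133a (-2.50), miR-133b (-1.05) and miR-133c (-1.83) on total reads and miR-133a (-0.64) on clean reads. The count of the list called in either direction was 4 to 5 in muscle and 4 to 6 in heart. On total reads the muscle count included miR-486, which was called lower. The miR-1 difference ranged from 7.08 to 11.82 for muscle and from 5.69 to 7.23 for heart against the other 9 organs, always called. Muscle against heart ranged from 1.25, on total miRNA reads and not called, to 5.07. On total reads 1 pair of neighbouring organs was called in place of 2, and 3 of the striated muscle list in place of 1 between muscle and heart. That count was 0 with edgeR, 2 with no minimum of reads and 0 to 0 with 1 stage left out. Maturity of miR-1 ranged from -1.38 to -0.75 and was called at -1.35 in DESeq2, at -1.38 without spleen and at -1.23 without the aged spleen, an alternative chosen after seeing the data. The heart difference in maturity ranged from -2.94 to -0.79. DESeq2 called 26 miRNAs between muscle and heart and 22 for maturity, against 10 and 7 in limma. With the replicate block, stages as pairs, miR-206 against heart stayed at 1.42 RPM and the log2 ratio of miR-1 to miR-133a at 3.75, both with an exact p of 0.125, the smallest this pairing allows. With 1 stage left out they were 1.25 to 1.59 RPM and 3.06 to 4.84, with an exact p of 0.1, again the smallest. Fits with no replicate block changed no call of miR-1. The pooled ratio of miR-1 to miR-206 in muscle was 568633 to 751197 with 1 stage left out. No library was repeated and deer were pooled, so the spread between animals was not measured, and counts of 6 to 15 reads limit what can be said of miR-206.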
